A study of Mus musculus with 18 samples.

Results

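The libraries described here are 10 of the 18 RNA-seq libraries of the series: macrophages isolated from the spleens of mice that had breathed either filtered air or PM2.5, the fine fraction of airborne particles. They were chosen by sample title, 5 libraries per group, and the other 8 libraries are whole spleens (4 air, 4 PM2.5). All mice were wild type C57BL/6J and both arms lasted 30 days. The exposure protocol of the macrophage experiment also names filtered air after the 30 days of air or PM2.5, so a period in clean air may lie between exposure and isolation, and the labels do not say how long. The abbreviation CAP in the titles of the exposed arm is not spelled out, and the protocol names PM2.5 as the exposure. The library called PM2.5 replicate 1 here has CAP in its title and air in its treatment field. It was kept in the PM2.5 group by title, and the results are also given without it. The titles call the libraries biological replicates. The labels give no age, sex or method of macrophage isolation, and do not say whether a library is 1 mouse or a pool, so p-values measure the spread between these preparations.

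Macrophages of the splenic red pulp engulf old and damaged red cells, break down heme with heme oxygenase, and return the iron to the blood through the exporter ferroportin (Slc40a1). They depend on the transcription factor Spic and carry the adhesion molecule Vcam1, F4/80 (Adgre1) and the CSF1 receptor (Csf1r). The same red pulp holds erythroid progenitors, granulocytes, monocytes and plasma cells, which adhere to macrophages or are recovered with them, so RNA of these cells is read alongside that of the macrophages.

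Total counts per library were 18107264 to 29013034 in air and 18848048 to 33844807 in PM2.5, and 1 CPM, the unit of all levels below (reads scaled to a common TMM library size), corresponds to 17.9 to 33.7 reads. Where a pair of levels is given as mean ± SD, air stands first and PM2.5 second (n = 5 libraries each). The macrophage label fitted the leading transcripts. Ranked by CPM per kilobase of exon over the air libraries, among 15628 tested genes with a known length, the ferritin light chain Ftl1 was 3rd, heme oxygenase Hmox1 17th, the complement subunit C1qa 19th, Csf1r 32nd, Vcam1 48th and Slc40a1 114th. Markers of other cells were also present on that scale, with the alpha globin Hba-a1 10th, the B cell receptor subunit Cd79a 136th and the immunoglobulin joining chain Jchain 140th. PM2.5 replicate 1 stood apart from the other 9 libraries. Its score on the first principal component, which held 32.7% of the variance, was 41.96 against -23.8 to 17.7, and ribosomal protein genes took 4.93% of its counts against 2.98% to 3.59%.

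No gene passed an adjusted p of 0.05 in edgeR's quasi-likelihood test with Benjamini-Hochberg adjustment, among 15696 tested (0.0% called in either direction, smallest adjusted p = 0.183). An unadjusted p under 0.05 was reached by 980 genes with a higher value in PM2.5 (6.24% of those tested) and by 724 with a lower one (4.61%). The 5 PM2.5 libraries lay wholly above the 5 air libraries for 222 genes (1.41%) and wholly below for 128 (0.815%). Without PM2.5 replicate 1 the test again called 0 genes, of 16229, with 1022 higher (6.3%) and 1186 lower (7.31%) at an unadjusted p under 0.05. The groups then lay apart for 379 (2.41%) and 257 (1.64%) of the 15696 genes. Groups of fewer libraries lie apart more easily, so these shares cannot be set against those of all libraries. DESeq2 called 175 genes with all libraries, 136 higher (0.866%) and 39 lower (0.248%), and 252 without replicate 1, of which 127 were called both times (72.6% of the first list, 50.4% of the second). Leaving out air replicate 4 gave 17 calls in edgeR and leaving out PM2.5 replicate 2 gave 3, against 0 for each of the other 8 libraries. The limma-voom test called 0 genes, with 976 higher and 739 lower at an unadjusted p under 0.05. The median log2 fold change of all tested genes was 0.006. Of 849 distinct symbols in the gene lists, 800 passed the filter on low counts and were tested. The differences that follow therefore rest on group values, and on counts of list members read against these background shares.

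**Figure D1:**
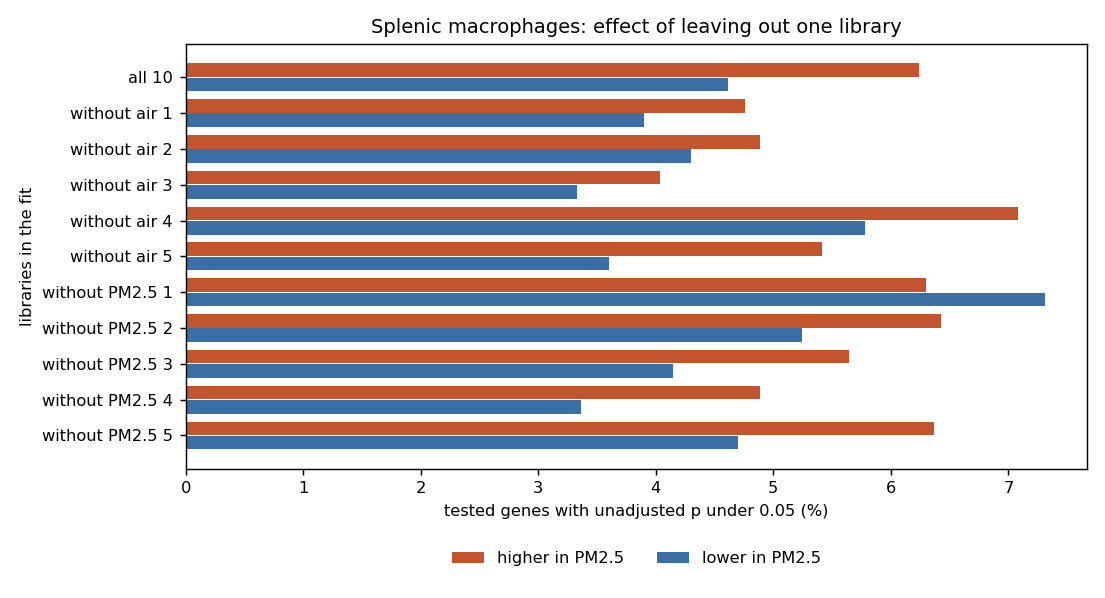
Percentage of tested genes with an unadjusted p under 0.05 (x axis) in the fit of all 10 macrophage libraries and in each fit with 1 library left out (y axis), split into higher (orange) and lower (blue) in PM2.5. With all libraries the higher share is the larger, 6.24% against 4.61%, and without PM2.5 replicate 1 the lower share is the larger, 7.31% against 6.3%.

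Ly6c2, a surface protein of classical monocytes, had the smallest p of the named genes with no immunoglobulin sequence among those higher in PM2.5. It lies at chr15:75108158-75111970, minus strand (GRCm38, GENCODE M21). It measured 23.2, 20.5, 15.8, 20.8 and 16.9 CPM in air replicates 1 to 5 and 40.7, 31.8, 29.3, 32.4 and 35.7 CPM in PM2.5 replicates 1 to 5. The lowest PM2.5 library was above the highest air library, with a log2 fold change of 0.80 (SE 0.123) and an adjusted p of 0.183 in edgeR. The other monocyte genes went less uniformly. Spn, the sialophorin CD43 of leukocytes, read 66.2, 48.2, 59.8, 62.3 and 55.4 CPM in air replicates 1 to 5 and 80.6, 92.9, 69.8, 84.4 and 85.7 CPM in PM2.5 replicates 1 to 5, again without overlap. Chil3, a chitinase-like secreted protein of myeloid cells, had 24.3 ± 6.80 CPM in the air group and 51.1 ± 22.0 CPM in the PM2.5 group (SD, n = 5 each), and the groups overlapped. Ccr2, the chemokine receptor of inflammatory monocytes, had 43.3 ± 8.04 CPM in the air group and 50.7 ± 18.5 CPM in the PM2.5 group, and its log2 fold change of 0.22 became -0.04 without PM2.5 replicate 1. Of 13 monocyte genes tested, 10 were higher, 3 of them at an unadjusted p under 0.05 (23.1%, background 6.24%). At that level 1 was lower (7.69%, background 4.61%), and the median log2 fold change was 0.22. Omitting PM2.5 replicate 1 left 9 of 13 higher, with a median of 0.145. With that library counted as air, 7 were higher, the median was 0.0049 and the log2 fold change of Ly6c2 was 0.48. The summed level of the list ran from 1327 to 1647 CPM over the air libraries and 1347 to 1645 CPM over those of PM2.5, and no marker was at 0 in a group.

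**Figure D2:**
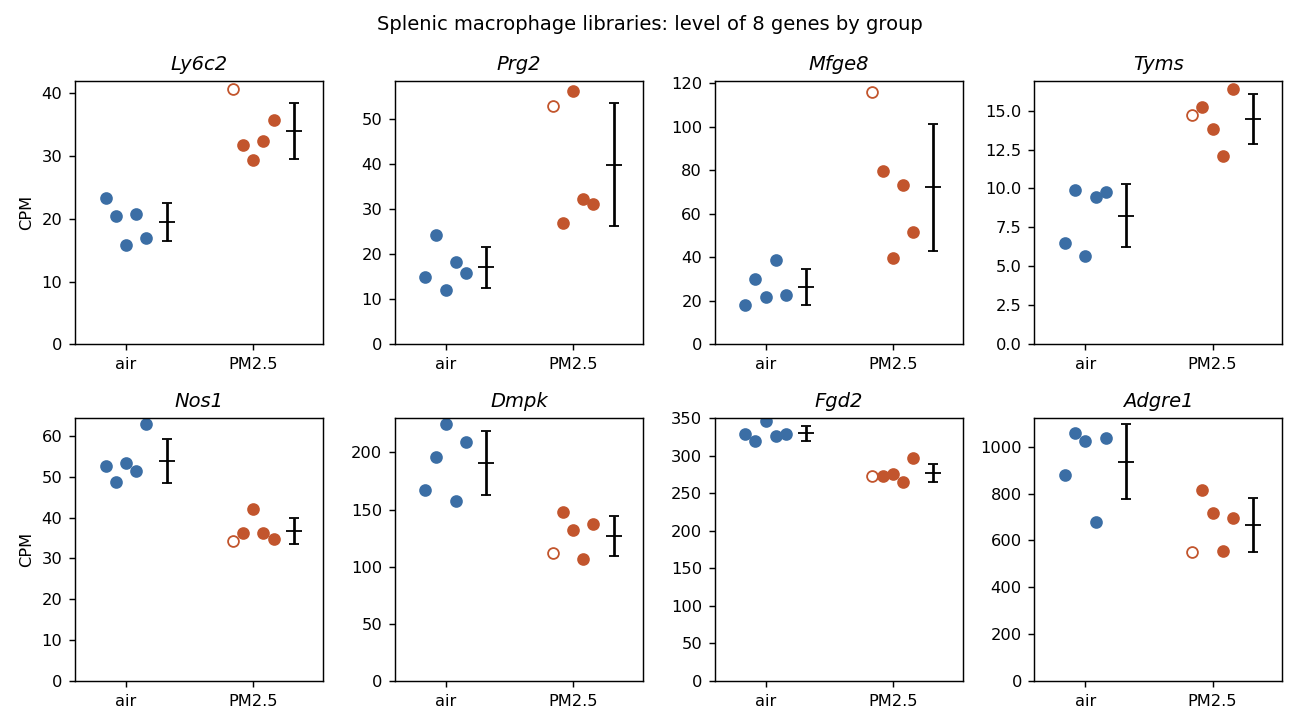
CPM (y axis, from 0) of 8 genes in the air (blue) and PM2.5 (orange) macrophage libraries; each point is a library, the open point is PM2.5 replicate 1, and the black bar is the mean with SD over 5 libraries. The PM2.5 points lie wholly above the air points for Ly6c2, Prg2, Mfge8 and Tyms and wholly below for Nos1, Dmpk and Fgd2, while the Adgre1 groups overlap.

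Most genes of the neutrophil list had higher values in PM2.5, and this list had the largest median of the lists, a size that depended on the group given to PM2.5 replicate 1. Prg2, the major basic protein of eosinophils, measured 14.9, 24.2, 12.1, 18.2 and 15.9 CPM in air replicates 1 to 5 and 52.8, 26.9, 56.1, 32.1 and 31.2 CPM in PM2.5 replicates 1 to 5. All PM2.5 values were higher, with log2 fold change 1.23 (SE 0.237). Epx, the eosinophil peroxidase, behaved alike, at 3.17, 4.48, 1.34, 2.92 and 3.19 CPM in air replicates 1 to 5 and 5.30, 5.93, 16.1, 6.94 and 6.53 CPM in PM2.5 replicates 1 to 5, and PM2.5 replicate 3 was far above its group. Prtn3, proteinase 3 of neutrophil primary granules, had 0.656, 0.719, 0.413, 0.707 and 0.605 CPM in air replicates 1 to 5 and 6.36, 1.61, 3.60, 1.80 and 1.63 CPM in PM2.5 replicates 1 to 5, with every PM2.5 library above every air library. The primary granule genes Mpo (myeloperoxidase) and Elane (neutrophil elastase) had log2 fold changes of 2.44 and 2.96 with overlapping groups. The calcium-binding proteins S100a8 and S100a9, abundant in mature neutrophils, had 8.19 ± 4.23 and 22.9 ± 14.2 CPM and 9.75 ± 3.85 and 27.8 ± 16.4 CPM. PM2.5 replicates 1 and 3 were the high libraries for both, and replicates 2 and 4 lay within the air range. Ly6g, a surface marker of neutrophils, did not pass the filter, with 12 reads over the 5 air libraries and 37 over the 5 PM2.5 libraries. Of 14 neutrophil genes tested, 12 were higher and 9 of these had an unadjusted p under 0.05 (background 6.24%), with a median log2 fold change of 1.65 and of 1.52 without PM2.5 replicate 1, when 9 genes were under that p. With PM2.5 replicate 1 counted as air, as its treatment field has it, 11 of 14 were higher, 0 were under that p and the median was 0.56. The log2 fold change in that setting was 0.50 for Prtn3, 0.61 for Elane, 0.94 for Mpo and 0.66 for Prg2. The list summed to 148 to 233 CPM over the air libraries and 137 to 357 CPM over those of PM2.5, a sum led by the receptor Csf3r, at 108 ± 10.3 and 98.9 ± 23.7 CPM, which was on the lower side. Since bulk RNA was measured, more cells of a type and more RNA per cell cannot be told apart, here and for every marker list below. Eosinophil, basophil and mast cell genes numbered 9 higher of 12, 2 at an unadjusted p under 0.05 (16.7%, background 6.24%), with a median of 0.50. That median dropped to 0.277 when PM2.5 replicate 5 was omitted, to 0.294 when air replicate 1 was, and to 0.285 under a stricter filter (1 CPM or more throughout a group). Among them Kit, the stem cell factor receptor, was on the lower side at 67.3 ± 23.0 and 49.1 ± 8.90 CPM for air and PM2.5.

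Mfge8, a secreted bridge that ties phosphatidylserine on dying cells to phagocyte integrins, was the engulfment gene with the largest difference. It measured 18.3, 29.9, 21.7, 38.6 and 22.7 CPM in air replicates 1 to 5 and 116, 79.8, 39.9, 73.1 and 51.5 CPM in PM2.5 replicates 1 to 5. The groups did not overlap, the PM2.5 values spread over a wide range, and the log2 fold change was 1.46 (SE 0.281), or 1.21 without PM2.5 replicate 1 and 0.56 with that library counted as air. Scaled over all 18 libraries, its air mean was 28.7 CPM in macrophages and 1069.9 CPM in whole spleen. Which cells of the preparations carried this RNA was not tested. Outside any list, Myh11, the smooth muscle myosin heavy chain, had 1.21 ± 0.410 and 2.95 ± 0.560 CPM, and Dnajc6, the clathrin-uncoating protein auxilin, had 0.550 ± 0.235 and 1.54 ± 0.337 CPM. Both were low-level transcripts with no overlap between groups. Scaled over all 18 libraries, the air mean of Myh11 was 1.32 CPM in macrophages and 37.0 CPM in spleen. That of Dnajc6 was 0.601 CPM in macrophages and 8.52 CPM in spleen. The part of other cells in these values was not tested. The log2 fold changes were 1.31 for Myh11 and 1.53 for Dnajc6. With PM2.5 replicate 1 counted as air they were 0.83 and 1.14.

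Immunoglobulin and plasma cell transcripts were higher in PM2.5 and uneven between libraries. The kappa variable segment Igkv1-122 had the smallest p of any higher gene and measured 3.68, 3.21, 3.86, 6.22 and 3.63 CPM in air replicates 1 to 5 and 24.2, 8.71, 25.5, 11.9 and 13.4 CPM in PM2.5 replicates 1 to 5. PM2.5 replicates 1 and 3 were highest, and every PM2.5 value lay above every air value. Igkv9-120 and the heavy chain segment Ighv1-59 also separated the groups, with log2 fold changes of 2.07 (SE 0.403) and 2.06 (SE 0.383). Of 191 variable segments tested, 174 were higher, 92 at an unadjusted p under 0.05 (background 6.24%), with a median log2 fold change of 1.06. For 11 of them all PM2.5 libraries lay above all air libraries (background 1.41%). The counts for these segments were made on all 10 libraries only. DESeq2 called 37 segments higher with all libraries, among 136 higher genes (0.866% of those tested). With PM2.5 replicate 1 left out it called 24, among 147. These segments are near copies of each other, so reads may have been split or lost among them in counting and single segments are uncertain. Jchain, which links polymeric antibodies, read 356, 675, 361, 1583 and 436 CPM in air replicates 1 to 5 and 3472, 868, 1468, 3062 and 1353 CPM in PM2.5 replicates 1 to 5. Air replicate 4 was above 3 of the 5 PM2.5 libraries, so the groups overlapped. All 16 plasma cell genes tested were higher, 13 at an unadjusted p under 0.05 (81.25%, background 6.24%), with a median of 0.77. When PM2.5 replicate 1 was left out, 5 were under that p (31.25%, background 6.3%) and the median was 0.59. With that library counted as air all 16 were higher, 0 were under that p and the median was 0.341, and the log2 fold change was 0.998 for Igkv1-122, 0.69 for Igkv9-120, 0.59 for Ighv1-59 and 0.55 for Jchain. Immunoglobulin genes as a whole took 0.838% to 3.59% of counts in air and 1.86% to 6.40% in PM2.5. The list summed to 1416 to 3337 CPM over the air libraries and 2242 to 5672 CPM over those of PM2.5. B cell markers differed less, at 388 ± 70.5 and 437 ± 93.5 CPM for Ms4a1 (CD20) in air and PM2.5. Of 16 genes 13 were higher, 1 at an unadjusted p under 0.05 (6.25%, background 6.24%). Of 20 genes of the unfolded protein response, which secretory cells use heavily, 19 were higher and 7 had an unadjusted p under 0.05 (35%, background 6.24%). Creld2 was first at log2 fold change 0.90 (SE 0.300) and the regulator Xbp1 next at 0.53 (SE 0.187). Without PM2.5 replicate 1 the count under that p was 3 of 20, and with it counted as air 1 of 20. The part of plasma cells in it was not tested.

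Cell cycle genes had higher group values in PM2.5, while the libraries of the groups overlapped in list level. Every one of the 40 genes of the S phase and replication list and of the 38 genes of the G2 and mitosis list was higher in PM2.5. An unadjusted p under 0.05 was reached by 27 and 24 of them, against the 6.24% background, with median log2 fold changes of 0.41 and 0.56. Leaving out PM2.5 replicate 1 gave 27 and 28, with medians of 0.42 and 0.62. With that library counted as air all members of both lists were again higher, 19 and 24 under that p, with medians of 0.35 and 0.53. Omitting air replicate 3 gave the lowest medians with 1 library left out, 0.329 and 0.387. The groups did not overlap for 7 and 8 genes (background 1.41%). The mean log2(CPM + 1) of the S phase list was 4.158 to 4.718 in air and 4.713 to 4.990 in PM2.5. For the G2 and mitosis list it was 3.38 to 4.51 in air and 4.40 to 4.95 in PM2.5. No member had an adjusted p under 0.05 in edgeR, and DESeq2 called 14 members of both lists together.

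Mcm6, a subunit of the replicative helicase, measured 59.2, 70.9, 52.4, 79.1 and 64.9 CPM in air replicates 1 to 5 and 91.9, 94.0, 95.9, 84.6 and 94.0 CPM in PM2.5 replicates 1 to 5. The PM2.5 libraries were close together and all above the highest air library, air replicate 4, with log2 fold change 0.50 (SE 0.1002). Tyms, which makes thymidylate, read 6.49, 9.90, 5.65, 9.47 and 9.79 CPM in air replicates 1 to 5 and 14.7, 15.2, 13.8, 12.1 and 16.4 CPM in PM2.5 replicates 1 to 5, and Dut, which clears dUTP, had 16.5 ± 3.19 and 27.1 ± 4.36 CPM. Air replicates 1 and 3 were the low libraries for Tyms. In mitosis, Spc25 of the outer kinetochore had 5.79, 5.81, 3.55, 5.84 and 7.26 CPM in air replicates 1 to 5 and 9.26, 9.13, 8.92, 8.25 and 9.93 CPM in PM2.5 replicates 1 to 5. Bub1, a kinase of the spindle checkpoint, had 7.59 ± 2.10 and 13.1 ± 2.13 CPM and log2 fold change 0.80 (SE 0.193), and Cks2, a partner of cyclin-dependent kinases, had 12.8 ± 2.29 and 18.1 ± 1.73 CPM. None of these 3 genes had overlapping groups. Levels of Ccnb1 (cyclin B1) were 12.6 ± 4.89 and 21.8 ± 3.53 CPM, and those of the kinase Aurkb 15.3 ± 3.77 and 22.9 ± 2.98 CPM, also without overlap.

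Many replication genes carry sites for E2F factors close to their start, so the promoters were searched for the letters TTTCCCGC and TTTGGCGC on both strands, in windows of 250 bases before to 50 after the RefSeq start (GRCm38.p6). A promoter entry was matched for 33 of the 40 S phase genes, and 11 of these held a match (33.3%): Cdc6, Cdt1, Gins3, Mcm3, Mcm5, Mcm6, Mcm7, Pola1, Pold1, Pold3 and Rfc3. Over all 27025 promoters by gene the share was 1.80%, and over the 10866 tested genes with an entry 3.35%. It was 0 of 32 for the G2 and mitosis genes, whose promoters are known for other elements. A match describes letters in the window only. The helicase genes Mcm6, Mcm7 and Mcm5 had the smallest p of the S phase genes with a match upstream of the start. Their stretches are printed 5′ to 3′ along the gene from RefSeq, with each match in capitals, as TTTGGCGC on the gene's strand in Mcm6, GCGGGAAA (TTTCCCGC on the other strand) in Mcm7, and GCGCCAAA (TTTGGCGC on the other strand) in Mcm5.
Mcm6, chr1:128359706-128359875, minus strand: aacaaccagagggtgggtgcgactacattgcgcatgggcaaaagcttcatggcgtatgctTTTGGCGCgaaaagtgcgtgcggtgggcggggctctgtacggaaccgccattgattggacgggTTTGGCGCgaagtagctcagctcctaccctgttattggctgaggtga
Mcm7, chr5:138171981-138172108, minus strand: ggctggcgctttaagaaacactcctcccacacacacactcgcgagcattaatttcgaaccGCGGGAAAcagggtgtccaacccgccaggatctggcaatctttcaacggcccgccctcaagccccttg
Mcm5, chr8:75109300-75109427, plus strand: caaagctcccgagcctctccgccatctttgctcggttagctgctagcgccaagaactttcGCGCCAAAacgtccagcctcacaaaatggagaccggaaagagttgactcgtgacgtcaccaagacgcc
The stretch of Mcm6 holds 2 matches, ending 102 and 39 bases before the start, that of Mcm7 ends its match 157 bases before the start, and that of Mcm5 141 bases before. In these libraries Mcm7 had 58.0 ± 10.4 and 78.8 ± 4.33 CPM and Mcm5 50.3 ± 12.0 and 70.3 ± 6.43 CPM for air and PM2.5, with log2 fold changes of 0.44 (SE 0.112) and 0.48 (SE 0.140).

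**Figure D3:**
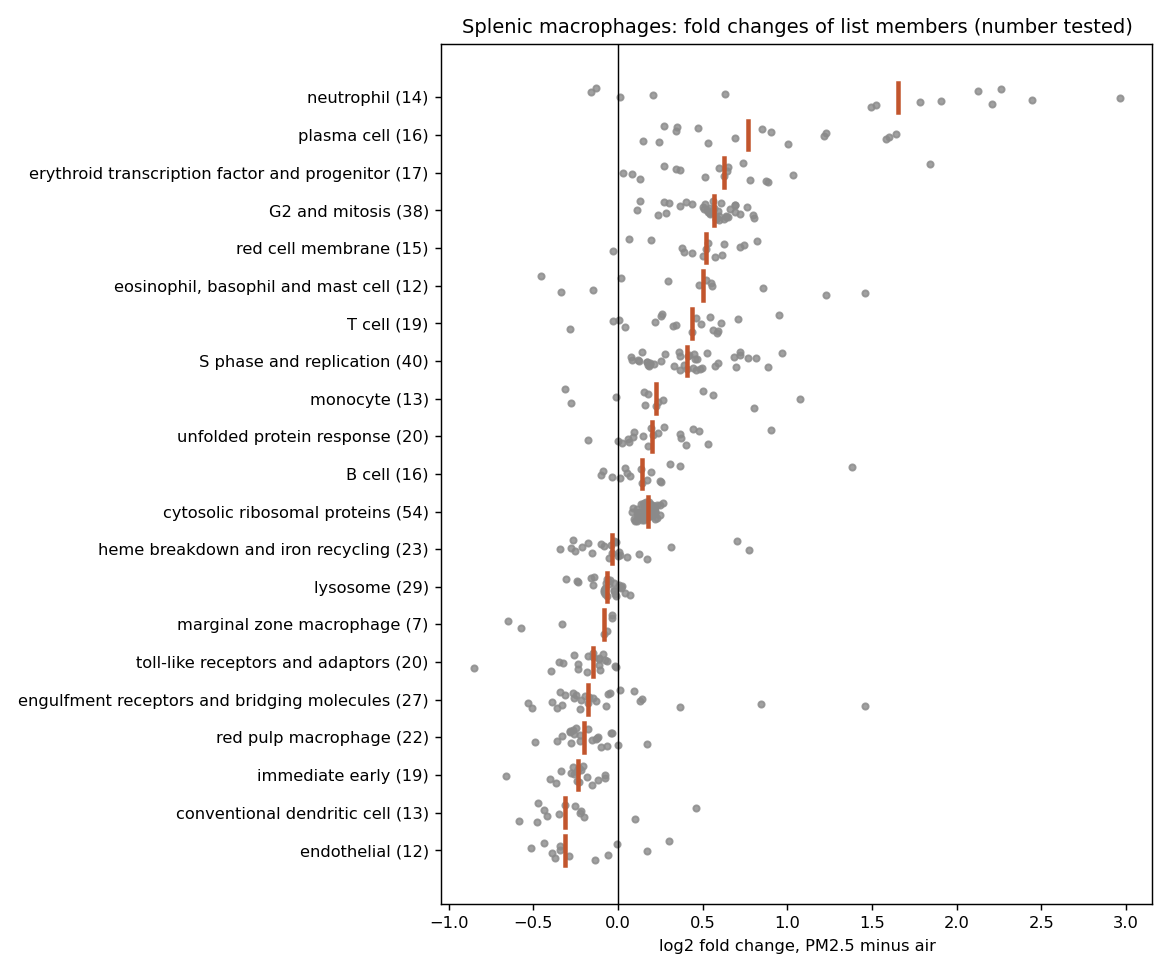
Log2 fold change, PM2.5 minus air (x axis), of each tested member (grey points) of 21 gene lists (y axis, with the number tested), and the list median (orange bar); the black line marks 0 and the median of all genes is 0.006. The neutrophil and plasma cell lists lie farthest to the right, the 38 G2 and mitosis and 40 S phase points all lie right of 0, and the immediate early and toll-like receptor points all lie left of it.

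Erythroid genes mostly had higher values in PM2.5, with wide spread, and the share of them under an unadjusted p of 0.05 was near the background. All 17 genes of the transcription factor and progenitor list were higher, with a median of 0.62, and 1 had an unadjusted p under 0.05 (5.88%, background 6.24%). Omitting air replicate 3 gave a median of 0.318, omitting PM2.5 replicate 5 one of 0.352 and omitting air replicate 5 one of 1.15, and limma-voom gave 1.29. The gene under that p was Car1, a carbonic anhydrase of early erythroid cells, at 11.9, 21.8, 1.997, 15.9 and 17.5 CPM in air replicates 1 to 5 and 79.2, 48.8, 66.2, 18.9 and 33.4 CPM in PM2.5 replicates 1 to 5. Air replicate 3 was by far the lowest library. Gata1, the main erythroid transcription factor, measured 4.88, 11.8, 1.58, 7.44 and 16.3 CPM in air replicates 1 to 5 and 12.7, 17.2, 15.9, 7.96 and 22.5 CPM in PM2.5 replicates 1 to 5, and air replicate 5 was above 3 of the 5 PM2.5 libraries. Of the late red cell genes, Hba-a1 had 2039.8 ± 926 and 2090.4 ± 409 CPM and Alas2, the first enzyme of heme synthesis in erythroid cells, 238 ± 114 and 238 ± 64.3 CPM, with log2 fold changes of 0.04 and 0.00200. Of 15 red cell membrane genes 14 were higher, with 1, Xk, at an unadjusted p under 0.05, with log2 fold change 0.82 (SE 0.274). Their median was 0.517, from 0.20 with PM2.5 replicate 5 omitted to 1.04 with air replicate 5 omitted. All 17 genes of heme and globin synthesis were higher, 1 under that p, with a median of 0.228, from 0.0724 to 0.384 with the same libraries omitted; Alas2 among them was on the lower side with DESeq2 size factors and upper-quartile scaling. The summed level of the progenitor list was 405 to 1345 CPM over the air libraries and 729 to 1591 CPM over those of PM2.5. Cell cycle genes are also expressed by erythroid progenitors, and the part of these cells in the cell cycle values was not tested.

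T cell transcripts were low throughout. Cd28, the costimulatory receptor, had 4.73 ± 1.90 and 9.18 ± 2.37 CPM in air and PM2.5, and the T cell receptor constant gene Trac 5.83 ± 0.615 and 9.61 ± 4.19 CPM. Of 19 T cell genes 17 were higher and 7 had an unadjusted p under 0.05 (36.8%, background 6.24%), with a median of 0.44. Without PM2.5 replicate 1, 3 were under it (15.8%, background 6.3%), with a median of 0.29. With that library counted as air 11 were higher, 0 were under it and the median was 0.0556. The list summed to 214 to 292 CPM over the air libraries and 227 to 332 CPM over those of PM2.5. None of 12 natural killer and 8 plasmacytoid dendritic cell genes had an unadjusted p under 0.05, nor did the 1 liver gene tested of 7 listed.

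**Figure D4:**
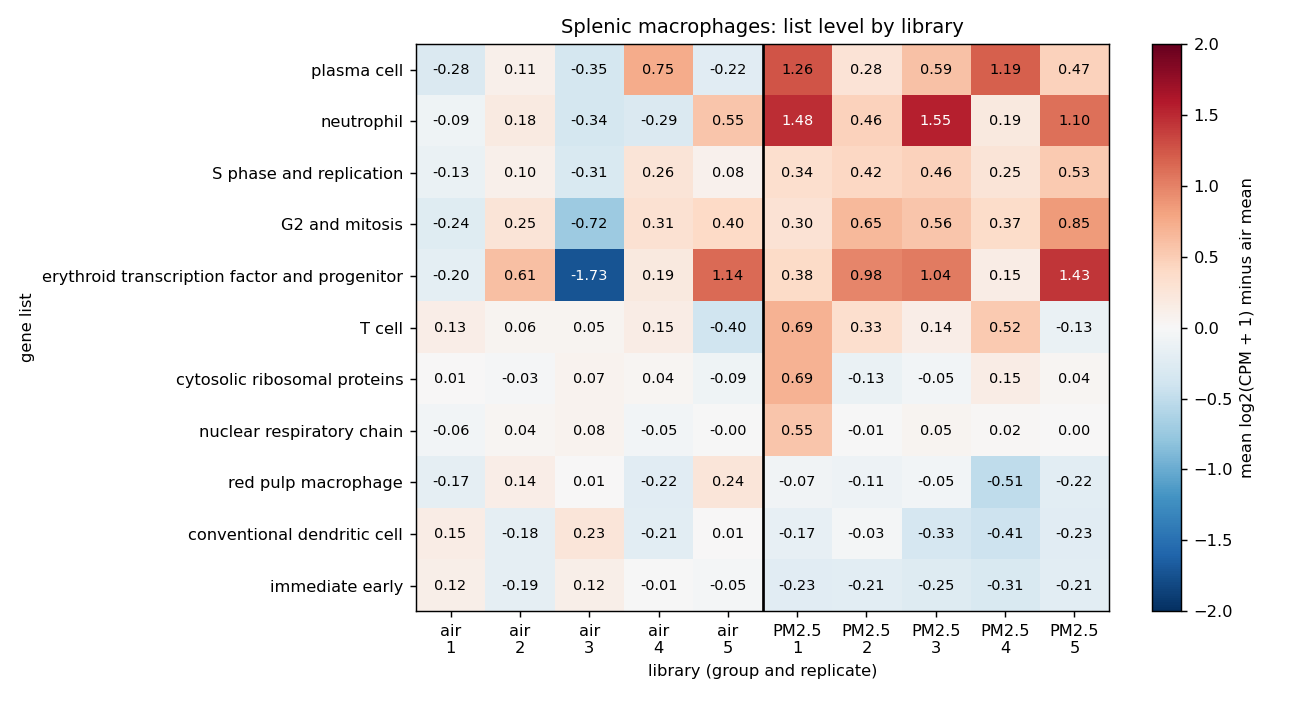
Mean log2(CPM + 1) of 11 gene lists (rows) in each macrophage library (columns), minus the mean of the 5 air libraries; red is above and blue below the air mean, and the number in each cell is the difference. PM2.5 replicate 1 is the only library far above the air mean for ribosomal protein and nuclear respiratory chain genes (0.69 and 0.55), air replicate 3 is lowest for erythroid genes (-1.73), and all PM2.5 libraries lie below all air libraries for immediate early genes.

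Among genes lower in PM2.5, Nos1, the neuronal nitric oxide synthase, had the smallest p. It lies at chr5:117781032-117958840, plus strand. It read 52.7, 48.8, 53.4, 51.4 and 63.0 CPM in air replicates 1 to 5 and 34.2, 36.2, 42.2, 36.2 and 34.8 CPM in PM2.5 replicates 1 to 5. The highest PM2.5 library, replicate 3, was below the lowest air library, and the log2 fold change was -0.55 (SE 0.0855) with an adjusted p of 0.183 in edgeR. Dmpk, the myotonic dystrophy protein kinase, measured 167, 196, 224, 157 and 209 CPM in air replicates 1 to 5 and 112, 147, 132, 107 and 138 CPM in PM2.5 replicates 1 to 5, with log2 fold change -0.59 (SE 0.120). Fgd2, a Cdc42 exchange factor of antigen-presenting cells, had tight groups, at 329, 319, 347, 326 and 329 CPM in air replicates 1 to 5 and 274, 274, 276, 265 and 297 CPM in PM2.5 replicates 1 to 5. Its difference was small, -0.25 (SE 0.0617) on the log2 scale. Smaller transcripts without overlap were Rem1, a GTPase of the RGK family, at 3.80 ± 0.980 and 1.85 ± 0.429 CPM in air and PM2.5, Sox4, a transcription factor, at 12.6 ± 2.21 and 8.38 ± 1.10 CPM, and Fgfr1, a fibroblast growth factor receptor, at 6.15 ± 0.744 and 4.30 ± 0.484 CPM. The zinc finger genes Zfp710 and Zfp90 had log2 fold changes of -0.38 (SE 0.0869) and -0.31 (SE 0.0728). Cnga3, a cyclic nucleotide-gated channel subunit, had -0.81 and Efcc1 had -0.61. Without PM2.5 replicate 1 the log2 fold changes of the 10 leading lower genes ran from -0.97 for Rem1 to -0.26 for Fgd2. These genes were chosen for groups that do not overlap, so leaving out a PM2.5 library could hardly reverse their direction.

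Genes of red pulp macrophage identity were mostly a little lower in PM2.5. Of 22 tested, 21 were lower, 4 at an unadjusted p under 0.05 (background 4.61%), with a median log2 fold change of -0.20. Without PM2.5 replicate 1, 20 were lower, 9 under that p (background 7.31%), with a median of -0.26. Without PM2.5 replicate 4 the median was -0.124. The groups overlapped for every one of them. Adgre1 measured 881, 1059, 1024, 679.7 and 1039 CPM in air replicates 1 to 5 and 551, 816, 716, 553 and 694 CPM in PM2.5 replicates 1 to 5, with air replicate 4 inside the PM2.5 range, and log2 fold change -0.49 (SE 0.146), unadjusted p 0.00574, edgeR adjusted p 0.299. Csf1r had 4415 ± 665 and 3506 ± 435 CPM, the receptor tyrosine kinase Axl, which recognises dying cells, 2770.0 ± 437 and 2160.4 ± 380.4 CPM, and the hemoglobin-haptoglobin receptor Cd163 880.3 ± 128 and 727 ± 28.5 CPM. The defining genes Vcam1 and Spic differed less. Vcam1 had 5460.1 ± 692 and 5212 ± 619 CPM and Spic 577 ± 60.7 and 538 ± 90.9 CPM, with log2 fold changes of -0.07 (SE 0.121) and -0.10 (SE 0.122). The value of C1qa depended on PM2.5 replicate 1. It measured 1154, 1322, 1401, 1091 and 1482 CPM in air replicates 1 to 5 and 1905, 1065, 1110.1, 818 and 991 CPM in PM2.5 replicates 1 to 5, and its log2 fold change of -0.13 was -0.38 without PM2.5 replicate 1. Marginal zone macrophage genes were lower in 7 of 7, 1 at an unadjusted p under 0.05, with a median of -0.085. With PM2.5 replicate 1 omitted it was 6 of 7, 0 at that p, with a median of -0.331. Siglec1, the sialoadhesin, had 148 ± 46.2 and 99.8 ± 34.1 CPM and the scavenger receptor Marco 96.6 ± 36.7 and 91.0 ± 18.7 CPM.

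Genes of iron recycling, the best known task of these cells, showed no common direction. Slc40a1 had 2759, 3303, 2195, 2441 and 3763 CPM in air replicates 1 to 5 and 2662, 3257, 3345, 2132 and 3063 CPM in PM2.5 replicates 1 to 5, overlapping throughout, with log2 fold change -2.18e-04 (SE 0.167). Hmox1 had 2467 ± 428 CPM in the air group and 2778 ± 597 CPM in the PM2.5 group, Ftl1 6111 ± 745 and 6647 ± 1342 CPM and the ferritin heavy chain Fth1 2482 ± 237 and 2505 ± 438 CPM, and log2 fold changes were 0.17 (SE 0.171) for Hmox1, 0.12 (SE 0.152) for Ftl1 and 0.01 (SE 0.125) for Fth1. Of 23 genes of heme breakdown and iron recycling tested, 8 were higher and 15 lower, with 2 and 1 at an unadjusted p under 0.05 and a median of -0.04. These values leave room for differences of the size of their SE and do not show equality.

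Receptors for dying cells and modified lipids leaned lower. Of 27 engulfment genes 20 were lower, 5 at an unadjusted p under 0.05 (18.5%, background 4.61%). At that level 2 were higher, Mfge8 among them (7.41%, near the background of 6.24%). Mertk, a kinase receptor of macrophages for apoptotic cells, had 572 ± 96.0 and 491 ± 75.9 CPM. Of 14 scavenger receptors 11 were lower, 4 at an unadjusted p under 0.05 (28.6%, background 4.61%). Stab2, a hyaluronan receptor of splenic sinus lining cells, was the one without overlap, at 343, 389.7, 402, 331 and 471 CPM in air replicates 1 to 5 and 297, 323, 313, 236 and 309.6 CPM in PM2.5 replicates 1 to 5. The endothelial list, which holds Stab2, was also mostly lower, with 10 of 12 lower and 4 at an unadjusted p under 0.05 (33.3%, background 4.61%). Its summed level was 689 to 861 CPM over the air libraries and 585 to 710.1 CPM over those of PM2.5. Stab2 alone gave 387 ± 55.6 and 296 ± 34.5 CPM of that sum. The defining endothelial gene Cdh5 (VE-cadherin) was low, at 5.59 ± 1.45 and 4.29 ± 1.59 CPM. Scaled over all 18 libraries, air means were 423 CPM in macrophages and 11.6 CPM in spleen for Stab2, and 6.11 and 17.8 CPM for Cdh5. The part of endothelial cells in the Stab2 value was not tested.

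Immediate early genes, which cells transcribe within minutes of stimulation or handling, were all lower. All 19 tested had a negative log2 fold change, 9 at an unadjusted p under 0.05 (47.4%, background 4.61%), with a median of -0.24. The groups did not overlap for 2 of 19 (background 0.815%). Without PM2.5 replicate 1, 13 of 19 were under that p (68.4%, background 7.31%), with a median of -0.28. The groups then did not overlap for 6 of 19 (background 1.64%). With that library counted as air 2 of 19 were higher, 8 were lower under that p and the median was -0.256. Fosb, a subunit of AP-1, read 1702, 1449, 1580.2, 1766 and 1514 CPM in air replicates 1 to 5 and 900.2, 1273, 1306, 1312 and 1417 CPM in PM2.5 replicates 1 to 5, with no overlap. Egr1 had 473 ± 88.9 and 359 ± 25.7 CPM and log2 fold change -0.40 (SE 0.123), Atf3 112 ± 28.9 and 70.6 ± 22.5 CPM and Jun 1939 ± 157 and 1649.5 ± 105 CPM. The mean log2(CPM + 1) of the list was 7.47 to 7.78 in air and 7.35 to 7.45 in PM2.5, so the groups did not meet.

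Innate sensing and antigen presentation showed small differences. All 20 toll-like receptor and adaptor genes were lower, 3 at an unadjusted p under 0.05 (15%, background 4.61%). These were Tlr5, the flagellin receptor, at 7.86 ± 2.498 and 4.34 ± 1.18 CPM, Tlr2, the lipopeptide receptor, at 55.0 ± 9.68 and 41.7 ± 3.504 CPM, and Unc93b1, the chaperone of endosomal receptors, at 981 ± 48.3 and 866 ± 62.0 CPM. When PM2.5 replicate 1 was omitted, 18 of 20 were lower, 6 at that p, and with it counted as air 13 of 20 were lower, 5 at that p. Conventional dendritic cell genes were lower in 11 of 13, 7 at an unadjusted p under 0.05 (53.8%, background 4.61%), with a median of -0.32. Members on the higher side numbered 2, and the highest log2 fold change was 0.46. Of the defining markers, Xcr1 was on the higher side, at log2 fold change 0.098, and Zbtb46 on the lower, at -0.476. Flt3, the receptor of the dendritic cell growth factor, measured 91.9, 52.7, 115, 55.0 and 64.9 CPM in air replicates 1 to 5 and 45.9, 63.6, 42.3, 44.7 and 56.3 CPM in PM2.5 replicates 1 to 5. Air replicates 1 and 3 were the high libraries and the other 3 air libraries lay near the PM2.5 range. Itgax (CD11c) had 361, 214, 368, 226 and 319 CPM in air replicates 1 to 5 and 211, 259, 217, 193 and 235 CPM in PM2.5 replicates 1 to 5, with air replicates 1, 3 and 5 high. Class II genes were lower in 13 of 15, with 0 at an unadjusted p under 0.05. Inflammatory cytokines and chemokines were lower in 17 of 22, 4 at an unadjusted p under 0.05 (18.2%, background 4.61%). Il1b ranged widely, at 135, 74.1, 72.9, 30.6 and 220.1 CPM in air replicates 1 to 5 and 145, 45.8, 35.6, 23.6 and 98.2 CPM in PM2.5 replicates 1 to 5, and Tnf had 8.57 ± 3.11 and 7.20 ± 0.738 CPM.

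Genes that respond to inhaled chemicals had no common direction in the aryl hydrocarbon receptor list. Of its 8 genes tested, 1 was higher and 1 lower at an unadjusted p under 0.05 (12.5% each, backgrounds 6.24% and 4.61%), and without PM2.5 replicate 1 it was 2 and 2 (25% each, backgrounds 6.3% and 7.31%). Cyp1b1, which oxidises polycyclic hydrocarbons, was the higher one, at 0.997 ± 0.294 and 1.75 ± 0.526 CPM. With PM2.5 replicate 1 counted as air, 0 genes of the list were higher and 1 lower under that p. The log2 fold change of Cyp1b1 was 0.79, and 0.43 in that setting. Scaled over all 18 libraries, its air mean was 1.09 CPM in macrophages and 55.3 CPM in whole spleen. Which cells carried this RNA was not tested. Cyp1a1 of the same list did not pass the filter, with 23 reads in air and 24 in PM2.5. Of 21 NRF2 antioxidant genes, 15 were higher and 1 had an unadjusted p under 0.05, against 11 and 2 without PM2.5 replicate 1, and Nqo1, a classical NRF2 target, had 1.57 ± 0.899 and 2.30 ± 0.921 CPM. Interferon-stimulated genes numbered 10 higher and 15 lower of 25, with 1 at an unadjusted p under 0.05.

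The values of ribosomal protein and respiratory chain genes depended on PM2.5 replicate 1. All 54 cytosolic ribosomal protein genes and all 46 nuclear respiratory chain genes were higher with all libraries, with medians of 0.18 and 0.15. Without PM2.5 replicate 1, 25 of 54 and 24 of 46 were higher, with medians of -0.005 and 0.001, and with it counted as air 0 of 54 and 2 of 46, with medians of -0.131 and -0.107.

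To see which differences were unlike those of whole spleen, the PM2.5 effect in macrophages minus that in spleen was tested over all 18 libraries in edgeR. Preparation and experiment cannot be told apart in this test, and CPM here are scaled over all 18 libraries. The difference passed an adjusted p of 0.05 for 259 of 17779 genes, 74 with the macrophage effect above the spleen effect (0.416%) and 185 below (1.04%). It passed for 152 genes without PM2.5 replicate 1 of the macrophages, and with 1 library left out the count ran from 68 (spleen air replicate 3) to 1317 (spleen air replicate 2). Of the 18 omissions, those of spleen air replicate 1, spleen PM2.5 replicates 1 and 2 and macrophage PM2.5 replicate 2 kept the count within 1.5 times of 259, and the other 14 did not. The test in limma-voom called 3 genes, all below the spleen effect, and with PM2.5 replicate 1 of the macrophages counted as air edgeR called 87, again all below, so that no gene was called above the spleen effect in either setting. Ly6c2 was among the 74, at 21.3 ± 3.33 CPM in macrophage air, 37.1 ± 4.67 CPM in macrophage PM2.5, 86.5 ± 26.0 CPM in spleen air and 63.9 ± 6.19 CPM in spleen PM2.5, with a difference of 1.24 (SE 0.229, adjusted p = 0.0183). Its level was higher in PM2.5 in macrophages and lower in PM2.5 in spleen. Mlc1, a membrane protein known from astrocytes, and Syt1, a synaptotagmin, also passed, with differences of 2.90 (SE 0.523, adjusted p = 0.0183) for the first and 3.10 (SE 0.582, adjusted p = 0.0183) for the second, but both were under 1 CPM in macrophages. Mfge8 had 28.7 ± 8.84 CPM in macrophage air, 78.5 ± 31.7 CPM in macrophage PM2.5, 1069.9 ± 181 CPM in spleen air and 955 ± 57.1 CPM in spleen PM2.5, with a difference of 1.62 (SE 0.347, adjusted p = 0.0325).

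Several genes, among them the macrophage genes Cd163, Adgre1 and Csf1r, were on the other side. Cd163 had 962 ± 140.5 CPM in macrophage air, 792 ± 30.7 CPM in macrophage PM2.5, 2.01 ± 0.684 CPM in spleen air and 9.998 ± 5.71 CPM in spleen PM2.5, with a difference of -2.59 (SE 0.403, adjusted p = 0.00877). Stab2 had 423 ± 61.0 CPM in macrophage air, 322 ± 38.1 CPM in macrophage PM2.5, 11.6 ± 2.92 CPM in spleen air and 37.3 ± 9.92 CPM in spleen PM2.5, with -2.08 (SE 0.253, adjusted p = 0.00106), and Dmpk -2.17 (SE 0.399, adjusted p = 0.0183). F4/80 and the CSF1 receptor had differences of -1.24 (SE 0.298, adjusted p = 0.0470) for Adgre1 and -0.90 (SE 0.208, adjusted p = 0.0434) for Csf1r. For each of these genes the mean was lower in PM2.5 in macrophages and higher in PM2.5 in spleen. In macrophages alone no gene passed in edgeR, and the log2 fold change was -0.28 for Cd163 and -0.39 for Stab2. The part of cell numbers in the spleen values was not tested. The transcript 4931431B13Rik and Gdpd2, a glycerophosphodiester phosphodiesterase, differed by -5.35 (SE 0.516, adjusted p = 5.81e-05) in the former and -3.85 (SE 0.536, adjusted p = 0.00495) in the latter. The first had 94.4 ± 11.1 CPM in macrophage air, 82.1 ± 15.5 CPM in macrophage PM2.5, 0.0480 ± 0.0961 CPM in spleen air and 2.05 ± 0.400 CPM in spleen PM2.5, and the second 1.63 ± 0.650 CPM in macrophage air, 1.35 ± 0.359 CPM in macrophage PM2.5, 1.296 ± 0.834 CPM in spleen air and 15.7 ± 4.98 CPM in spleen PM2.5. Spleen air was near 0 for 4931431B13Rik, so the size of its difference depends on the prior count of the fit. The differences of Ly6c2, Cd163, Stab2, Dmpk, Mlc1, Syt1, 4931431B13Rik and Gdpd2 passed in edgeR with each of the 18 libraries left out in turn. In limma-voom those of Stab2, 4931431B13Rik and Gdpd2 passed, and those of Ly6c2 (adjusted p = 0.0677), Cd163 (0.0677), Dmpk (0.0677), Mlc1 (0.0741) and Syt1 (0.0807) did not. With PM2.5 replicate 1 counted as air those of Ly6c2, Mlc1 and Syt1 did not pass in edgeR, and with the replicate block that of Dmpk did not (adjusted p = 0.0555). That of Mfge8 passed in 10 of the 18 fits, that of Csf1r in 6 and that of Adgre1 in 5, and without PM2.5 replicate 1 of the macrophages the adjusted p was 0.0405, 0.0451 and 0.0664.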

How the data were processed

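Polyadenylated RNA of 10 splenic macrophage and 8 whole spleen preparations was sequenced by the authors, with NEBNext Ultra II libraries per the labels' protocols. The authors deposited unnormalized read counts for each Ensembl gene, and the submitters' processing notes name the tools FastQC 0.10.1 and HTSeq 0.10.0 and the builds mm10 and GRCm38. Aligner, annotation version and strandedness of the counting were not given in the sources used here, so overlapping and antisense genes cannot be told apart. Of 55414 gene identifiers, 52133 matched GENCODE M21.

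Counts were filtered with filterByExpr (minimum count 10, minimum total 15), scaled with TMM and tested two-sided with the quasi-likelihood test of edgeR 4.0.16 in R 4.3.3, with Benjamini-Hochberg adjustment over all tested genes and a threshold of 0.05. The macrophage comparison used the 10 macrophage libraries, and the difference from spleen used all 18. CPM are counts relative to the TMM-scaled library total, and SE is that of the log2 fold change. Alternatives were DESeq2's size factors, upper-quartile scaling, DESeq2 1.42.0, limma-voom (limma 3.58.1), 2 other filters, a replicate block, the omission of each library, and PM2.5 replicate 1 counted as air. DESeq2 without PM2.5 replicate 1 was added after seeing the data. The steps were tested on simulated data.

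The libraries, members and gene lists were chosen with earlier results of these data known. Named genes were, per direction, the 10 of smallest p that had a symbol, non-overlapping groups and a mean level of 1 CPM or more, then the 3 members of smallest p in the 10 lists with the largest absolute median, a set of cell identity and iron genes, and 3 genes per direction for the difference from spleen. Other list members were given as examples by their p.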

Additional observations from a re-analysis of the deposited data

Results flagged for a closer look

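Of 276 values of a group of 5 libraries checked, 22 had 1 library far from the other 4, where about 1 in 20 is flagged by chance, and 6 of the 22 concerned PM2.5 replicate 1. PM2.5 replicate 1 was the highest library of its group for C1qa (1905 against 1110.1 CPM in the next library), Ccr2 (83.2 against 47.9), Pf4 (4.798 against 1.505) and Pla2g7 (713 against 412). PM2.5 replicate 3 was the highest library of its group for Epx (16.1 against 6.94 CPM in the next library) and Nos1 (42.2 against 36.2). PM2.5 replicate 5 was the highest library of its group for Cnga3 (1.15 against 0.842 CPM in the next library). PM2.5 replicate 5 was the lowest library of its group for Xcr1 (8.44 against 11.6 CPM in the next library). Air replicate 4 was the highest library of its group for Igkv1-122 (6.22 against 3.86 CPM in the next library), Igkv9-120 (53.7 against 23.6), Jchain (1583 against 675), Sdc1 (28.1 against 12.3) and Tnfrsf17 (2.78 against 1.16). Air replicate 4 was the lowest library of its group for Eng (18.04 against 24.4 CPM in the next library). Air replicate 5 was the highest library of its group for Itgad (2157 against 1686 CPM in the next library) and S100a8 (15.5 against 8.19). For the nuclear respiratory chain list the mean log2(CPM + 1) of PM2.5 replicate 1 was the highest of its group, 6.58 against 6.08 in the next library. For the circadian clock list the mean log2(CPM + 1) of PM2.5 replicate 1 was the lowest of its group, 4.18 against 4.64 in the next library. For the heme breakdown and iron recycling list the mean log2(CPM + 1) of PM2.5 replicate 4 was the lowest of its group, 7.63 against 7.998 in the next library. For the scavenger receptors list the mean log2(CPM + 1) of PM2.5 replicate 4 was the lowest of its group, 5.92 against 6.13 in the next library. For the glucocorticoid-responsive list the mean log2(CPM + 1) of air replicate 3 was the highest of its group, 5.81 against 5.56 in the next library. For the T cell list the mean log2(CPM + 1) of air replicate 5 was the lowest of its group, 2.85 against 3.30 in the next library.

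The effect of PM2.5 differed between macrophages and whole spleen, by edgeR's test of the difference with an adjusted p under 0.05, for 15 named genes. Over all genes 259 of 17779 passed. Mlc1, Ly6c2, Syt1, 4931431B13Rik, Stab2 and Gdpd2 had the smallest p of this same test in their direction, so that they pass is no separate support. Dnajc6, Mfge8, Dmpk and Fgfr1 were named by their p in macrophages, whose effect is part of the difference. The macrophage effect was above the spleen effect, on the log2 scale, by the following values: Ly6c2 1.24, Dnajc6 1.74, Mfge8 1.62, Cd3d 1.38, Mlc1 2.90, Syt1 3.10. Each of these genes had a higher mean CPM in spleen than in macrophages in both arms, and the part of other cells in their values was not tested. The macrophage effect was below for the others, with these values: Dmpk -2.17, Fgfr1 -1.68, Stab2 -2.08, Eng -1.20, Cd163 -2.59, Adgre1 -1.24, Csf1r -0.90, 4931431B13Rik -5.35, Gdpd2 -3.85. The part of cell numbers in the spleen values of these genes was not tested. Of these 15 differences, 15 passed with DESeq2, 9 with the replicate block, 7 with PM2.5 replicate 1 counted as air and 3 with limma-voom. With each of the 18 libraries left out in turn in edgeR, Dnajc6 passed in 7 fits, Eng in 11, Cd3d in 12 and Fgfr1 in 14, and without PM2.5 replicate 1 of the macrophages the adjusted p of Dnajc6 was 0.0542.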

How the results depend on the processing

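In macrophages edgeR called 0 genes under both other scalings, a stricter filter (1 CPM or more throughout a group), the replicate block and with PM2.5 replicate 1 counted as air, and limma-voom called 0. It called 1 gene, Igkv1-122, without a filter. DESeq2 called 175, and 252 with PM2.5 replicate 1 left out, a setting added after seeing the data. With each library left out the count ran from 0 to 17. For the difference from spleen, 259 calls became 1044 with DESeq2, 3 with limma-voom (0 above the spleen effect), 91 with the replicate block (15 above) and 87 with PM2.5 replicate 1 counted as air (0 above), stayed within 1.5 times under the other scalings and filters, and ran from 68 to 1317 with each library left out. The causes were not tested. DESeq2 size factors in edgeR moved the split of these calls to 38 above and 192 below.

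The labels do not say whether equal replicate numbers pair the macrophage libraries, and correlations of so few libraries cannot settle it. Of 5 same-number correlations 2 were over 0.1 (range -0.153 to 0.355), and 2 air libraries correlated best with their own number. The replicate block left the macrophage count at 0.

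Of 92 named genes, 14 changed sign in some setting, all with small or uneven differences. With PM2.5 replicate 1 counted as air, the log2 fold change of 34 of the 54 named higher genes and 6 of the 38 named lower ones was smaller by over 1.5 times or reversed. With PM2.5 replicate 1 counted as air, the log2 fold change was -0.017 for Bsg, 0.0389 for Slc40a1, -0.165 for Fth1, -0.0246 for Ftl1, 0.101 for Cd209b, -0.282 for Pla2g7, -0.709 for Pf4 and -0.241 for Ccr2. With DESeq2 and that library left out it was 0.0219 for Slc40a1, -0.0945 for Fth1, 0.0272 for Cd209b, -0.0795 for Pla2g7, -0.203 for Pf4 and -0.0324 for Ccr2. Slc40a1 was at 0.0009 without a filter and 0.0073 with the replicate block. Alas2 was at -0.0032 with DESeq2 size factors, -0.0046 with upper-quartile scaling, -0.0042 with DESeq2 and -0.0086 with the stricter filter. With each library left out the log2 fold change ran from -0.093 to 0.105 for Slc40a1, -0.0997 to 0.0758 for Fth1, -0.225 to 0.162 for Marco, -0.189 to 0.0215 for Cd209b, -0.0849 to 0.296 for Pla2g7, -0.21 to 0.0641 for Klrb1c, -0.149 to 0.21 for Hba-a1, -0.186 to 0.186 for Alas2, -0.186 to 0.792 for Pf4, -0.0375 to 0.309 for Ccr2, -0.0254 to 0.306 for Col1a1 and -0.198 to 0.0274 for Pdgfrb. Of 874 list medians under an alternative, 20 moved by more than the spread between replicates. Depth limits genes near the filter, where 1 CPM is 17.9 to 33.7 reads.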
